A study of Mus musculus with 9 samples.

Results

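Microtubules are built from pairs of alpha and beta tubulin, and the mouse genome encodes each of them in several isotypes that are near copies of each other. 10 of these genes were followed around birth in whole mouse hearts. They were the alpha isotypes Tuba1a, Tuba1b, Tuba1c, Tuba4a and Tuba8 and the beta isotypes Tubb2a, Tubb2b, Tubb4b, Tubb5 and Tubb6, out of 48820 genes in the deposited table. They were taken by their gene symbols and were chosen by measured values, namely their levels and their differences between stages in these same hearts, so their levels, shares and differences are a description and support nothing by themselves. RNA-seq was run on 9 hearts, 3 each at E18.5d (embryonic day 18.5, shortly before birth), P1d and P7d (postnatal days 1 and 7). All 9 came from untreated wild-type C57BL/6J mice, a common inbred strain, and all are labelled male; no group carried an allele or agent that the others lacked. The unit is FPKM, fragments per kilobase of transcript scaled to the number of mapped fragments, which is a level per length, so genes can be compared within a heart. Each value comes from a whole organ, and fewer cells of a type and less RNA per cell cannot be told apart in it. Over all 9 hearts the lowest mean among the 10 was 6.30 FPKM (Tuba8), and the highest among the other alpha and beta tubulin genes was 3.13 FPKM (Tubb4a).

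Depth, read from the steps between low FPKM values, was 25250000 to 45500000 fragments per heart. Cardiomyocyte markers were abundant in every heart, at 31670 to 40820 FPKM summed over 8 genes. In 4 hearts the label of male sex was not met: Xist, the RNA of the inactive X chromosome, stood at 82.57 and 97.03 FPKM in E18.5d replicates 1 and 3 and at 58.03 and 69.96 FPKM in P7d replicates 2 and 3, and Ddx3y, Uty, Eif2s3y and Kdm5d, which lie on the Y chromosome, were all at 0 there. In the other 5 hearts Xist was at 0.02 to 0.11 FPKM and those 4 genes were present. Airway markers (Foxj1, 3 secretoglobins and Sftpc) summed to 90.7 and 251 FPKM in E18.5d replicates 1 and 2 and to 492 FPKM in P1d replicate 1, against 0.05 to 3.18 FPKM in the other 6 hearts. Results are therefore also given without the 4 hearts with Xist, which leaves 1 heart at E18.5d and 1 at P7d. They are also given without the 3 hearts with airway markers, which leaves 1 heart at E18.5d (replicate 3, with Xist) and 2 at P1d.

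Most alpha tubulin genes encode a final tyrosine, which a vasohibin (Vash1 or Vash2) bound to its partner Svbp can remove and which the ligase Ttl can put back. Long-lived microtubules commonly lack it, in the cardiomyocyte among other cells. Tubulin is also controlled at the mRNA: Ttc5 binds newly made tubulin at the ribosome and triggers decay of the tubulin mRNA when free tubulin is plentiful.

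The ends of 3 alpha coding sequences are shown because they set the isotypes that were higher at P7d, Tuba4a and Tuba8, beside Tuba1c, which was lower. Each line gives the last 60 coding bases (GRCm38, GENCODE M21) including the stop codon, and the capitals mark the last codon before the stop.
Tuba1c, chr15:99037950-99038009 (+): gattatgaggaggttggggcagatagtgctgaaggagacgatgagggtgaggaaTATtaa
Tuba4a, chr1:75215622-75215681 (-): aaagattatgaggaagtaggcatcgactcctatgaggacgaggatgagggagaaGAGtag
Tuba8, chr6:121226020-121226079 (+): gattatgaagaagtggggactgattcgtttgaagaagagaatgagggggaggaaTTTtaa
In Tuba1c the last codon was the tyrosine codon TAT, and the other Tuba1 genes also encode a final tyrosine. In Tuba4a it was the glutamate codon GAG, so this isotype is made without the final tyrosine. In Tuba8 it was the phenylalanine codon TTT. Counted back from the stop codon without alignment, the ends of Tuba1c and Tuba8 differed at 15 of 60 bases. No such count is given for Tuba4a, which has 448 codons before the stop against 449 in Tuba8, so their ends are out of register. Aligned over the whole coding sequence, Tuba8 was 80.8% identical to Tuba4a and 79.9% identical to Tuba1c.

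The beta isotypes Tubb2a and Tubb2b are neighbours on chromosome 13, and their ends are shown because these near copies differed in level at P7d.
Tubb2a, chr13:34074468-34074527 (-): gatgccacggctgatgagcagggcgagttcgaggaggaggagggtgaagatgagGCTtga
Tubb2b, chr13:34127471-34127530 (-): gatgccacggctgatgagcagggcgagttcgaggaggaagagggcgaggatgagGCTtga
These ends differed at 3 of 60 bases, and over the whole coding sequence they were 96.5% identical. Each of the 5 stretches shown lies within a single exon.

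Tuba8, an alpha isotype known from heart and skeletal muscle (ENSMUSG00000030137, chr6:121210696-121226854), was the member that differed most between stages. It stood at 0.62, 0.3 and 0.75 FPKM in the 3 E18.5d hearts, at 1.09, 1.43 and 1.45 FPKM in the P1d hearts, and at 14.39, 19.54 and 17.16 FPKM in the P7d hearts. Every P7d heart lay above every P1d heart, and every P1d heart above every E18.5d heart. The mean was 0.557 ± 0.232 FPKM (SD, n = 3) at E18.5d, then 1.32 ± 0.202 FPKM at P1d, then 17.0 ± 2.58 FPKM at P7d, so the P7d mean was 30.6 times that of E18.5d and 12.9 times that of P1d. The E18.5d level rests on an estimated 22 to 45.8 fragments per heart, against 1020.5 to 1585.3 at P7d. On the log2(FPKM + 1) scale the difference from E18.5d to P7d was 3.54 (SE 0.14), and from E18.5d to P1d it was 0.59 (SE 0.14); that scale understates the change of a gene this low. Left with the single hearts E18.5d replicate 2 and P7d replicate 1, both without Xist, the difference was 3.57 (SE 0.22), with 0.3 FPKM against 14.39. Without the 3 hearts with airway markers it was 3.36. An antisense gene, Gm15856, overlaps 12.5% of its 100-base windows and was listed at 0.11 FPKM or less in every heart.

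Tuba4a (ENSMUSG00000026202, chr1:75214228-75219865), the isotype made without a final tyrosine, was higher at P7d alone. It was measured at 42.56, 37.22 and 34.36 FPKM at E18.5d, at 26.71, 35.66 and 35.02 FPKM at P1d, and at 105.17, 143.25 and 133.29 FPKM at P7d. The E18.5d and P1d hearts overlapped, and all 3 P7d hearts lay well above them. The P7d mean of 127 ± 19.8 FPKM was 3.34 times that of E18.5d and 3.92 times that of P1d, with log2 differences of 1.71 (SE 0.14) and 1.94 (SE 0.14). Without the 4 hearts with Xist the P7d to E18.5d difference was 1.47 (SE 0.24). Tuba4a overlaps Stk16, a kinase gene on the opposite strand, and 46.7% of its 100-base windows are also found in transcripts of another gene. Since no source used here gives the strand setting of the counting, reads from the part where Tuba4a and Stk16 overlap cannot be told apart. Stk16 itself stood at 36.15 to 38.26 FPKM at E18.5d, 23.11 to 26.73 FPKM at P1d and 28.36 to 36.45 FPKM at P7d. Its P7d hearts overlapped those of E18.5d and lay above those of P1d (0.42, SE 0.10, limma adjusted p = 0.00696).

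The 3 Tuba1 genes, the major alpha isotypes of dividing and growing cells, lie together on chromosome 15 (chr15:98949837-98953703 for Tuba1a, chr15:98931425-98934565 for Tuba1b and chr15:99029891-99038110 for Tuba1c). Tuba1b was the most abundant tubulin mRNA by its mean at each stage, at 627.35, 611.09 and 587.13 FPKM at E18.5d, 222.29, 246.02 and 276.63 FPKM at P1d, and 324.92, 391.4 and 396.86 FPKM at P7d. It was lowest at P1d and intermediate at P7d, with no overlap between any pair of stages. Tuba1a had the same order, with 387.95, 342.17 and 369.74 FPKM at E18.5d, 201.78, 219.16 and 229.82 FPKM at P1d, and 238.96, 300.94 and 277.31 FPKM at P7d. The 3 stages of Tuba1a did not overlap either, although its P7d mean was only 25.7% below that of E18.5d. Tuba1c was at 55 to 59.9 FPKM at E18.5d and at 31.62 to 35.37 FPKM over all 6 postnatal hearts, and its P1d and P7d hearts overlapped. Relative to E18.5d, the P1d means were 59.2% lower for Tuba1b, 40.8% lower for Tuba1a and 40.3% lower for Tuba1c. The ratio of Tuba1b to Tuba1a was 1.59 to 1.79 in the E18.5d hearts, 1.10 to 1.20 in the P1d hearts and 1.30 to 1.43 in the P7d hearts. These values depend on how the counting divided shared reads: the coding sequences of Tuba1a and Tuba1b are 98.3% identical, and 65.9% and 73.0% of their 100-base windows occur in another gene's transcripts. For Tuba8 and Tuba4a no such window occurs in another of the 10 genes.

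**Figure D1:**
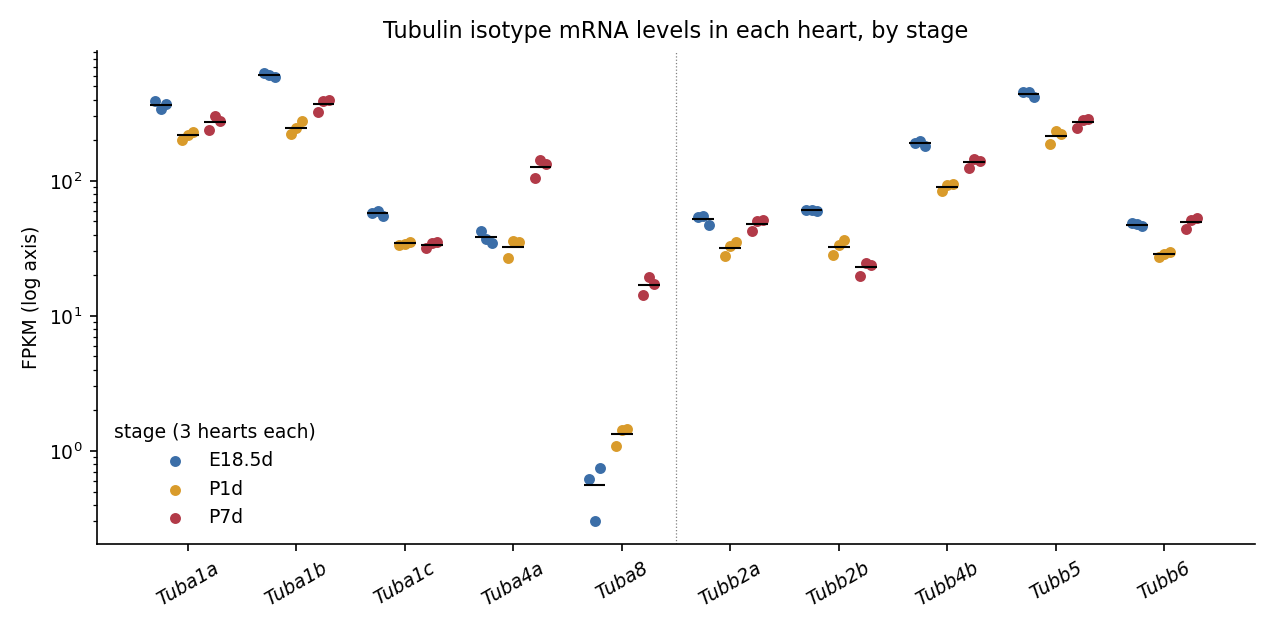
FPKM of the 10 tubulin isotypes (log axis) in each of the 9 hearts, coloured by stage; black lines are stage means and the dotted line parts alpha from beta isotypes. Tuba8 sits at 0.3 to 1.45 FPKM before P7d and at 14.39 to 19.54 FPKM at P7d, while Tubb5, Tuba1a and Tuba1b are highest at E18.5d.

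Among the beta isotypes, Tubb5, the major beta tubulin of proliferating tissue, led at each stage (chr17:35833921-35838306). It stood at 453.64, 454.64 and 419.61 FPKM at E18.5d, at 186.46, 235.64 and 220.79 FPKM at P1d, and at 245.2, 283.96 and 289.12 FPKM at P7d. The P1d hearts were lowest, and the P7d hearts lay between the others without overlap. Tubb4b, a widely expressed beta isotype that is also abundant in cilia (chr2:25222160-25224702), gave 191.1, 198.57 and 179.8 FPKM at E18.5d, 84.66, 92.8 and 94.76 FPKM at P1d, and 124.72, 144.62 and 141.42 FPKM at P7d, again without overlap. Its shared windows (30.6%) lie almost wholly in pseudogene copies, each listed at 0.48 FPKM or less. At E18.5d its highest values were in the 2 hearts with airway markers. P1d replicate 1, the heart with the most airway marker RNA, had the lowest Tubb4b of all 9, as it had the lowest P1d value of every isotype. Its Tubb4b share of beta FPKM was 23.9%, against 21.9% and 22.7% in the other P1d hearts. At E18.5d that share was 23.7% and 24.3% with airway markers and 23.9% without. The part of airway cells in these values was not tested.

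Tubb2a and Tubb2b, beta isotypes best known from neurons, had like levels before P7d and unlike levels at P7d. Tubb2a was at 53.58, 55.25 and 47.28 FPKM at E18.5d, at 27.61, 32.91 and 35.23 FPKM at P1d, and at 42.35, 50.11 and 50.92 FPKM at P7d. Tubb2b was at 60.63, 61.02 and 59.85 FPKM at E18.5d, at 28.14, 33.46 and 36.25 FPKM at P1d, and at 19.89, 24.8 and 23.87 FPKM at P7d. Tubb2a at P7d overlapped its E18.5d level, whereas Tubb2b was lower at P7d than at either earlier stage and was 62.2% below its E18.5d mean. As a share of the pair, Tubb2b made up 52.5 to 55.9% before birth, 50.4 to 50.7% at P1d but 31.9 to 33.1% at P7d. Of the 100-base windows, 36.9% of Tubb2a and 27.8% of Tubb2b occur in other genes' transcripts, mostly in each other's. Summed over 6 genes, neuron markers were low throughout, at 5.84 to 10.38 FPKM at E18.5d and 3.96 to 4.98 FPKM in the 6 postnatal hearts, and their part in the Tubb2b level was not tested.

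Tubb6, a minor beta isotype known to rise in regenerating muscle, was at its fetal level at P7d. It stood at 48.62, 47.57 and 46.29 FPKM at E18.5d, at 27.15, 28.86 and 29.96 FPKM at P1d, and at 43.7, 51.42 and 53.32 FPKM at P7d. The P1d hearts were lowest, and the E18.5d and P7d hearts overlapped. No 100-base window of the Tubb6 or Tubb5 transcript examined was found in a GENCODE transcript of another gene. Near matches were not examined.

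P7d replicate 1 had the lowest P7d value for each of the 10 isotypes, and it was the only P7d heart without Xist. Likewise P1d replicate 1 had the lowest P1d value for each of the 10, and there Xist was at 0.07 to 0.11 FPKM in every heart. The part of sex in these values was not tested.

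The order of the isotypes changed with stage. At E18.5d it ran Tuba1b, Tubb5, Tuba1a, Tubb4b, then Tubb2b, Tuba1c, Tubb2a and Tubb6, of which each overlapped the next, then Tuba4a and last Tuba8. At P1d, Tuba1b, Tuba1a and Tubb5 each overlapped the next, Tubb4b followed, and Tuba1c, Tubb2b, Tuba4a, Tubb2a and Tubb6 formed a run of overlapping neighbours above Tuba8. At P7d Tuba1b led, Tubb5 and Tuba1a overlapped, and Tuba4a had come up beside Tubb4b, with overlapping hearts. Below them Tubb6 and Tubb2a overlapped, and Tuba1c, Tubb2b and Tuba8 followed in steps without overlap. Tuba8 was thus last at every stage, but at P7d its mean was 17.0 FPKM against 22.9 FPKM for Tubb2b.

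Shares within a family do not depend on how a heart's column was scaled. They can depend on how the counting divided shared reads, as for the Tuba1 genes, for Tubb2a and Tubb2b, and where Tuba4a overlaps Stk16. Of the summed alpha FPKM, Tuba8 made up 0.0519 ± 0.0218% (SD, n = 3) before birth, 0.247 ± 0.0212% at P1d, and by P7d 2.07 ± 0.111%. Tuba4a made up 3.55 ± 0.265%, 6.07 ± 0.573% and 15.4 ± 0.699%. Both shares were higher at each later stage without overlap, so Tuba4a already had a larger share at P1d although its level at P1d overlapped that at E18.5d: the Tuba1 genes around it were lower. With columns scaled to an equal sum, the level of Tuba4a passed as lower at P1d than at E18.5d (-0.40). Together the 3 Tuba1 genes went from 96.1 to 96.7% of alpha FPKM at E18.5d to 81.7 to 83.3% at P7d. Tuba1b alone went from 56.8 ± 1.17% to 46.5 ± 1.16% at P1d and 45.2 ± 1.11% at P7d, the last pair overlapping. Tuba1a was at 34.2 ± 1.45%, 40.7 ± 0.918% and 33.2 ± 0.811%, higher at P1d than at the other stages, which overlapped.

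Beta shares moved less. Tubb5 held 55.9%, 53.8% and 51.5% of beta FPKM at E18.5d, P1d and P7d, and Tubb4b held 23.9%, 22.9% and 25.9%. Tubb6 went from 6.00 to 7.22 and 9.33%, and Tubb2a from 6.56 to 8.0 and 9.02%. Tubb2b held 7.64%, 8.18% and 4.31% in the same order, and its P7d hearts lay below all the others. Summed alpha FPKM was 1071 ± 39.1, 533 ± 46.5 and 822 ± 93.4 at the 3 stages, and summed beta FPKM was 793 ± 34.7, 398 ± 38.4 and 530 ± 46.8. The ratio of alpha to beta sums lay at 1.29 to 1.39 at E18.5d and 1.27 to 1.39 at P1d, which overlap, and at 1.503 to 1.603 at P7d, above both.

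**Figure D2:**
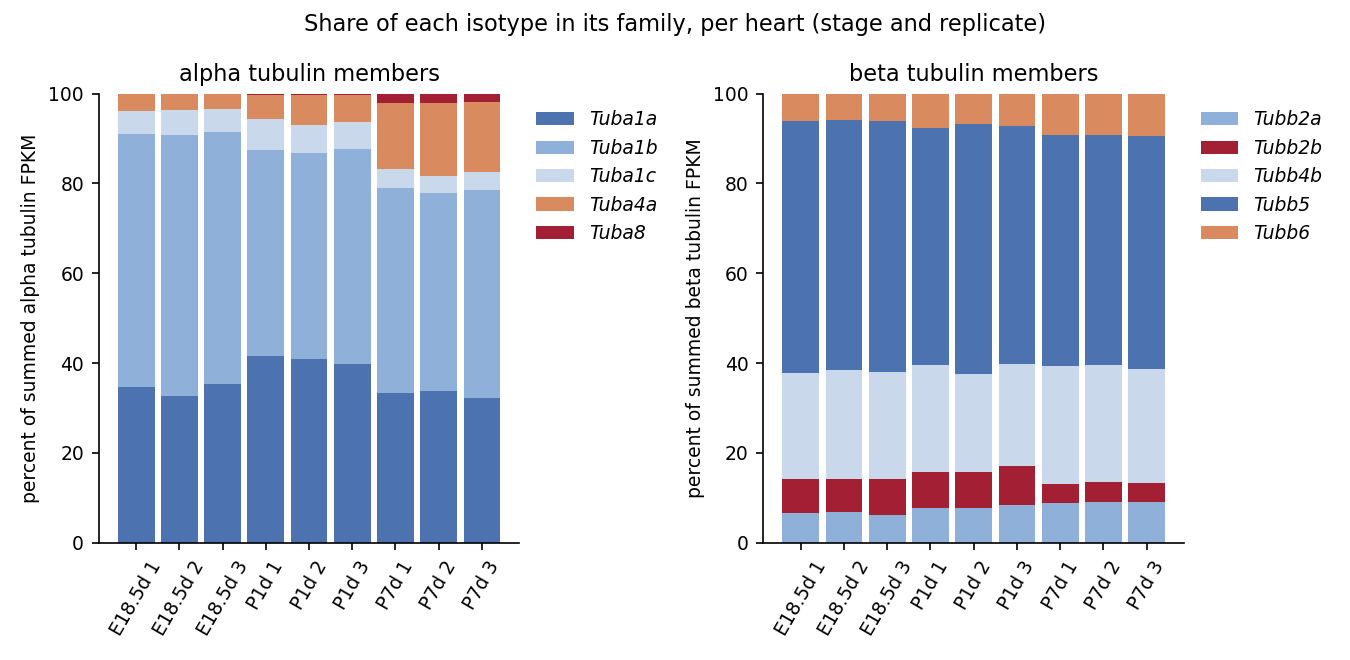
Percent of summed alpha FPKM (left) and beta FPKM (right) from each isotype, a stacked bar per heart labelled by stage and replicate. Tuba4a and Tuba8 widen at P7d to 15.4% and 2.07% on average, and Tubb2b narrows to 4.31%.

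The differences between stages were set beside those of all 13618 tested genes with limma on log2(FPKM + 1), where a gene passed at an adjusted p (Benjamini-Hochberg) under 0.05. Between P7d and E18.5d, 2 of the 10 isotypes passed as higher (Tuba8 and Tuba4a), 6 as lower and 2 as neither (Tubb2a and Tubb6); of all tested genes 49.4% passed, 12.5% as higher and 36.9% as lower. Between P1d and E18.5d, Tuba8 passed as higher, 8 isotypes as lower and Tuba4a as neither, against 46% of all genes, 18.4% higher and 27.6% lower. Between P7d and P1d, 8 passed as higher, Tubb2b as lower and Tuba1c as neither, against 44.2% of all genes, 15.5% higher and 28.6% lower. Since the isotypes were chosen on these differences, nothing is read from the counts. The 3 comparisons share their hearts, since each stage enters 2 of them.

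The lower isotypes differed from E18.5d to P7d by -1.37 (SE 0.10) for Tubb2b, -0.76 (SE 0.06) for Tuba1c, -0.72 (SE 0.10) for Tuba1b, -0.70 (SE 0.10) for Tubb5, -0.47 (SE 0.07) for Tubb4b and -0.43 (SE 0.09) for Tuba1a. The isotypes that passed as neither were at -0.12 (SE 0.11) for Tubb2a and 0.05 (SE 0.08) for Tubb6. From E18.5d to P1d the largest differences were -1.29 (SE 0.10) for Tuba1b, -1.06 (SE 0.07) for Tubb4b and -1.05 (SE 0.10) for Tubb5. The median of the 10 was -0.45 from E18.5d to P7d, -0.74 from E18.5d to P1d and 0.57 from P1d to P7d, beside -0.17, -0.06 and -0.09 over all tested genes.

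That median of all genes depends on scaling: it was -0.17 on the deposited scale from E18.5d to P7d and 0.01 after scaling by the median of ratios. Relative to it, Tuba8 was at 3.71, Tuba4a at 1.88, Tubb6 at 0.23, Tubb2a at 0.05, Tuba1a at -0.26 and Tubb2b at -1.20. Scaled by the median of ratios, 3 isotypes passed as higher and 5 as lower: Tubb6 passed as higher (0.26), Tuba1a no longer passed (-0.22), and Tubb2a turned to 0.09. Without the 4 hearts with Xist, 2 isotypes passed from E18.5d to P7d (Tuba8 higher and Tubb2b lower), 6 from E18.5d to P1d, all lower, and 2 from P1d to P7d (Tuba8 and Tuba4a, higher); 194 of all genes then passed from E18.5d to P7d. The setting without the 3 hearts with airway markers leaves 1 heart at E18.5d and 2 at P1d. There 5 differences no longer passed. They were Tuba1a from E18.5d to P7d (-0.45) and Tuba8 (0.48) and Tubb2a (-0.46) from E18.5d to P1d. The others were Tuba1a (0.27) and Tubb5 (0.25) from P1d to P7d. From P1d to P7d, the smallest differences that passed were those of Tuba1a (0.32) and Tubb5 (0.35). Tuba1a no longer passed without P1d replicate 1 (0.27), P7d replicate 2 (0.25) or P7d replicate 3 (0.31), and Tubb5 without P7d replicate 2 (0.32) or 3 (0.31). Both calls were also lost with Xist as a covariate (0.18 for Tuba1a, 0.29 for Tubb5) and without the filter on low genes (0.32 and 0.35). Without that filter the call of Tuba8 from E18.5d to P1d was lost too (0.59).

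**Figure D3:**
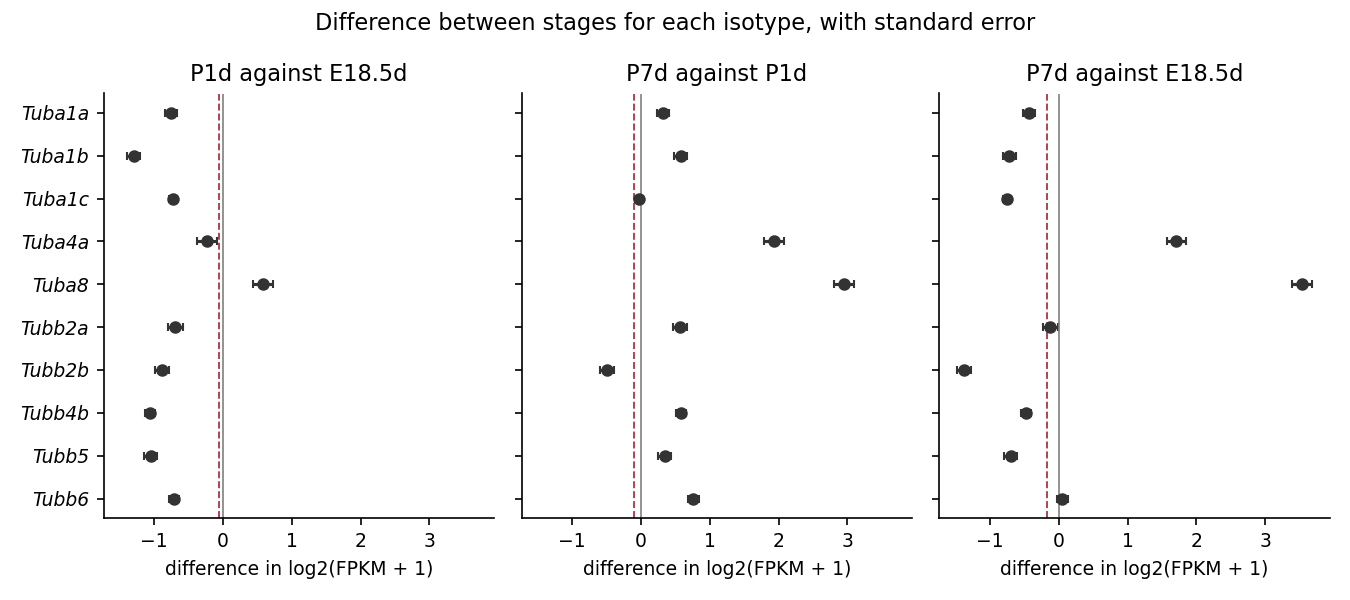
Difference in log2(FPKM + 1) between stages for each isotype, with its standard error, in the 3 comparisons; the grey line is 0 and the dashed red line the median of all 13618 tested genes. Tuba8 and Tuba4a stand at 3.54 and 1.71 in the P7d against E18.5d panel, and Tubb2b at -1.37.

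The last codon shown above divides the alpha mRNA. The share of alpha FPKM from the isotypes without a final tyrosine codon, Tuba4a and Tuba8, was 3.87, 3.57 and 3.35% in the E18.5d hearts, 5.73, 6.91 and 6.31% in the P1d hearts, and 16.7, 18.3 and 17.5% in the P7d hearts. No stage overlapped another, and Tuba4a supplied most of it in every heart. Like the other shares, it can depend on how shared reads were divided. FPKM measure mRNA, and neither the protein nor its modification was measured in these libraries.

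The genes of the tyrosine cycle are no members and were tested in the same fit. Vash1, a vasohibin that removes the tyrosine, was at 13.35, 12.15 and 10.44 FPKM at E18.5d, 7.62, 7.73 and 9.81 FPKM at P1d, and 19.89, 16.94 and 22.3 FPKM at P7d. It rose from P1d to P7d by 1.14 (SE 0.13) on the log2 scale (limma, adjusted p = 0.000153), and it was also higher at P7d than at E18.5d (0.67, SE 0.13, adjusted p = 0.00212). Vash2, the other vasohibin, went the opposite way, with 17.23 to 17.98 FPKM at E18.5d, 8.51 to 12.92 FPKM at P1d and 5.16 to 5.85 FPKM at P7d, and fell by 1.503 (SE 0.13) from E18.5d to P7d (limma, adjusted p = 1.9e-05). Their partner Svbp was at 31.13 to 38.16, 37.29 to 45.39 and 20.08 to 25.18 FPKM and fell from E18.5d to P7d by 0.57 (SE 0.11, limma adjusted p = 0.00213). Ttl, the ligase, was at 6.32 to 7.43, 5.29 to 5.52 and 7.44 to 9.24 FPKM. Its P7d hearts lay just above its E18.5d hearts, a difference of 0.19 (SE 0.09) that missed the threshold (limma, adjusted p = 0.109). By the median of ratios and by quantile normalization Ttl passed as higher (0.38 and 0.34, limma adjusted p = 0.00683 and 0.0115). Without the 4 hearts with Xist, the P7d to E18.5d differences were 0.67 for Vash1 and -1.49 for Vash2, and neither passed (limma, adjusted p = 0.162 and 0.079).

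**Figure D4:**
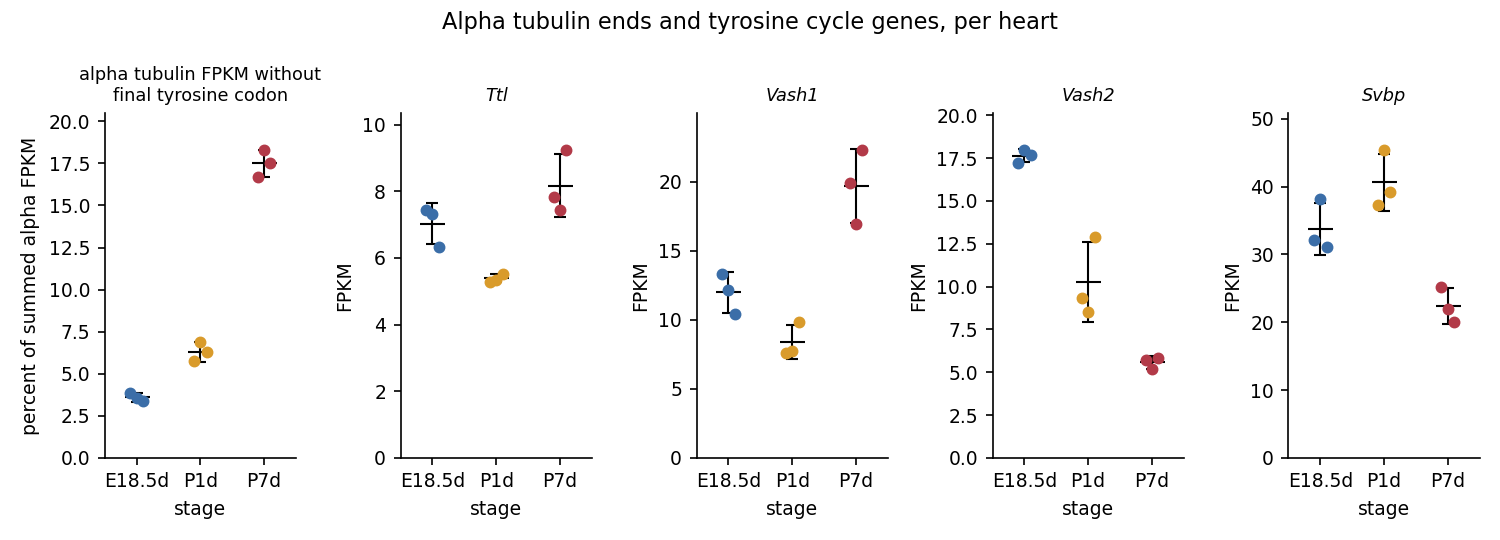
Share of alpha FPKM from isotypes without a final tyrosine codon (percent, left) and FPKM of Ttl, Vash1, Vash2 and Svbp, a point per heart with mean and SD by stage. The share is 16.7 to 18.3% in the P7d hearts and 3.35 to 3.87% in the E18.5d hearts; Vash1 is highest and Vash2 lowest at P7d.

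The wider tubulin machinery was a list of 87 genes that fold, nucleate, modify, bind or sever tubulin, of which 69 had enough signal to be tested. It was written down by function, and its counts are a description beside those of all genes. From E18.5d to P7d, 13 rose, 29 fell and 27 did neither, and their median difference was -0.24 beside -0.17 for all genes. From E18.5d to P1d, 11 rose and 27 fell (median -0.16 beside -0.06), and from P1d to P7d 13 rose and 17 fell (median -0.02 beside -0.09). Scaled by the median of ratios, the split was 20 higher and 15 lower from E18.5d to P7d. It was 14 and 22 from E18.5d to P1d, and 19 and 10 from P1d to P7d. Which direction held more of the list thus depended on the scaling in the 2 comparisons with P7d. From E18.5d to P1d more of the list was lower either way. Over all genes the split from E18.5d to P7d went from 1706 higher and 5025 lower to 3159 higher and 2545 lower. From E18.5d to P1d it went from 2505 and 3755 to 3215 and 3031, and from P1d to P7d from 2112 and 3901 to 3194 and 2471. Without the 4 hearts with Xist, Mapt was the only machinery gene that passed from E18.5d to P7d, and 5 passed from E18.5d to P1d. Without the 3 hearts with airway markers, 20 passed from E18.5d to P7d and 17 from E18.5d to P1d.

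Genes whose products bind microtubules were where most rises lay: 9 of 17 tested rose and 3 fell from E18.5d to P7d, with a median of 0.25. Over all genes 12.5% were higher and 36.9% lower. The split of the 17 was 11 and 2 after scaling by the median of ratios, and 5 and 3 with columns scaled to an equal sum. Mapt, which encodes tau, was at 0.58, 0.78 and 1.15 FPKM at E18.5d, 0.67, 0.98 and 0.51 FPKM at P1d, and 13.24, 10.89 and 10.86 FPKM at P7d. Its P7d hearts stood far above the others, and it rose by 2.79 (SE 0.15) from E18.5d (limma, adjusted p = 1.2e-06) and by 2.88 (SE 0.15) from P1d. Without the 4 hearts with Xist the Mapt difference from E18.5d was 3.00 (limma, adjusted p = 0.0215). Map7d1, a kinesin-1 cofactor, was at 47.18 to 49.1 FPKM at E18.5d, 38.82 to 52.67 FPKM at P1d and 75.61 to 76.28 FPKM at P7d, and rose by 0.64 from E18.5d to P7d. Map6, a stabiliser of microtubules against cold, rose by 0.60 and 0.72 from E18.5d to P7d and P1d, and Map7, the relative of Map7d1, by 0.37 and 0.77. The P7d call of Map6 was lost without E18.5d replicate 1 (0.50), E18.5d replicate 3 (0.53) or P7d replicate 3 (0.45). That of Map7 was lost without E18.5d replicate 2 (0.37) or 3 (0.35), or any 1 P7d heart (0.33, 0.40 and 0.38). The P1d calls of Map6 (0.89) and Map7 (0.78) were lost without the 3 hearts with airway markers, and that of Map6 also with Xist as a covariate (0.59) and without the filter on low genes (0.72). Clip2, a plus-end protein, rose by 0.46 from E18.5d to P7d. Map4, the major protein of this kind outside neurons, rose by 0.25, and Dclk1, Mapre3 and Clasp1 also rose; these 4 did not pass with columns scaled to an equal sum. Map1b, known from growing axons, fell by 0.76, and Map1a fell by 0.72. Mapre1, which tracks growing ends, fell by 0.53 (-0.32 and not past the threshold by the median of ratios). Clasp1, also a plus-end protein, was highest at P1d, at 221.92 to 266.74 FPKM against 150.64 to 155.67 FPKM at E18.5d. That was a rise of 0.68. Dclk1, a doublecortin-like kinase, rose by 0.87 from P1d to P7d.

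Among the genes that destabilise or sever microtubules, none of 10 tested rose from E18.5d to P7d and 5 fell (3 after scaling by the median of ratios), beside 12.5% higher and 36.9% lower over all genes. Stmn1, which sequesters tubulin dimers, was at 230.25, 206.61 and 211.05 FPKM at E18.5d, 103.16, 120.57 and 100.84 FPKM at P1d, and 97.56, 93.95 and 109.5 FPKM at P7d. It was lower in all 6 postnatal hearts and fell by 1.10 (SE 0.09) to P7d (limma, adjusted p = 1.3e-05). Kif2c, a depolymerising kinesin of the mitotic centromere, went from 15.74 to 17.25 FPKM at E18.5d to 3.42 to 5.02 FPKM at P1d and 6 to 7.26 FPKM at P7d, and fell by 1.73 and 1.22 from E18.5d to P1d and P7d. Fignl1, a relative of the severing enzymes that is known from DNA repair, was at 10.85 to 11.5, 1.33 to 3.53 and 5.51 to 5.65 FPKM. It fell by 1.99 to P1d and by 0.88 to P7d, and rose by 1.10 from P1d to P7d. The fall to P7d no longer passed without the 3 hearts with airway markers (-0.85).

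In the folding pathway, prefoldin and the tubulin cofactors that assemble alpha and beta tubulin into dimers, none of 12 rose and 7 fell from E18.5d to P7d, to be read against the same 12.5% and 36.9% of all genes. Scaled by the median of ratios 2 rose and 3 fell. Tbca, the cofactor that holds beta tubulin, was at 91.78, 91.46 and 87.99 FPKM at E18.5d, 78.88, 77.72 and 89.08 FPKM at P1d, and 47.73, 45.35 and 42.25 FPKM at P7d. The P7d hearts were lowest without overlap, with a fall of 0.99 (SE 0.07) from E18.5d (limma, adjusted p = 6.5e-06). Pfdn4, a prefoldin subunit, was at 7.83 to 9.42 FPKM at E18.5d and 4.03 to 5.32 FPKM at P7d, a fall of 0.84. In the list of gamma, delta and epsilon tubulins and nucleation, none of 11 rose and 6 fell from E18.5d to P7d, but by the median of ratios 1 rose and 2 fell. Tubg1, the gamma tubulin that starts new microtubules, was among the 6 but not among the 2. Tubg1 was at 21.88 to 22.88 FPKM at E18.5d, 9.74 to 12.38 FPKM at P1d and 15.93 to 18.44 FPKM at P7d, and fell by 1.01 to P1d. Mzt2, a small subunit of the gamma tubulin complex, did the reverse, with a rise of 0.87 to P1d and a fall of 0.82 from P1d to P7d. Ttc5, the factor for decay of tubulin mRNA, fell by 0.34 from E18.5d to P7d (limma, adjusted p = 0.00631), but not after scaling by the median of ratios.

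The Ttll genes, listed for the glutamate or glycine chains that several of them add to tubulin tails, were mostly low, with 6 of 13 tested. From E18.5d to P7d Ttll1 rose by 0.23, and Ttll4, Ttll5, Ttll7 and Ttll12 fell by 0.55, 0.79, 0.43 and 0.43. None of 3 tested deglutamylases passed in that comparison, and of the acetylation genes only the deacetylase Sirt2 passed, with a rise of 0.21. Scaled by the median of ratios, 2 Ttll genes fell in place of 4 and 1 deglutamylase, Agbl3, passed as higher (0.46). With columns scaled to an equal sum neither Sirt2 (0.17) nor Ttll1 (0.20) passed.

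**Figure D5:**
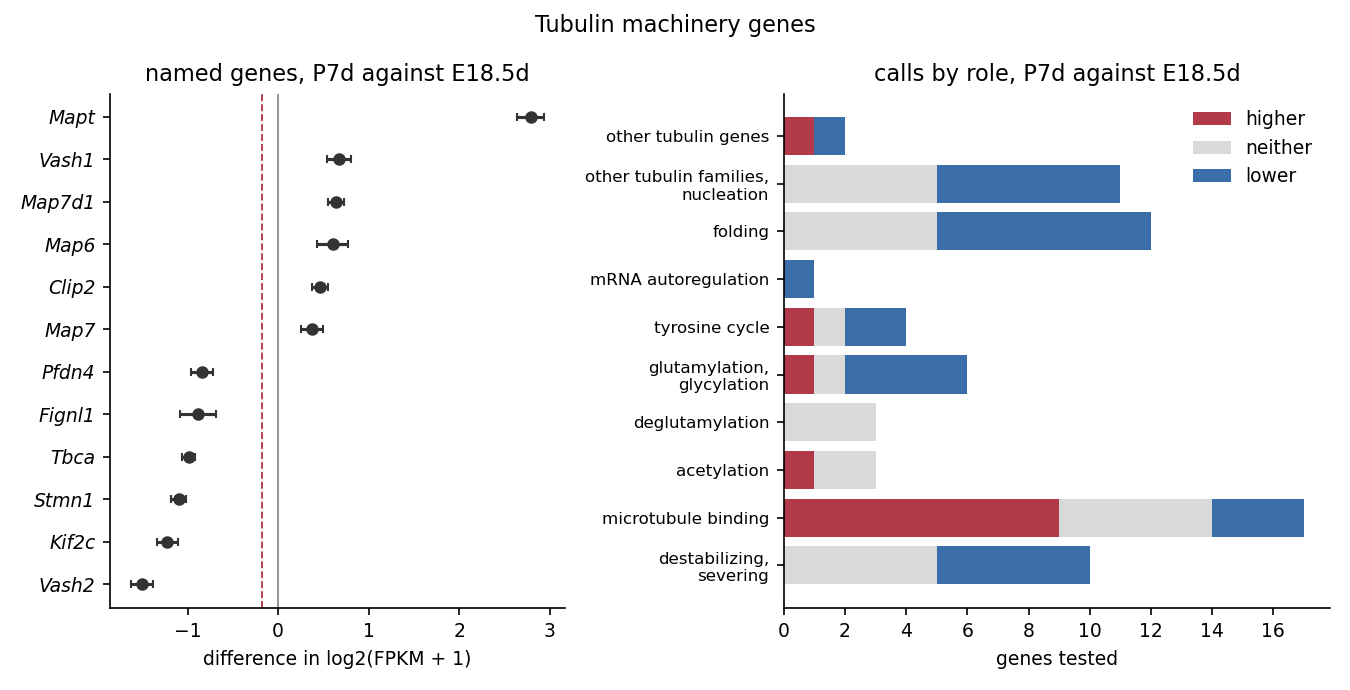
Left, difference in log2(FPKM + 1) between P7d and E18.5d with standard error for the named machinery genes, with 0 in grey and the median of all tested genes dashed. Right, number of tested genes per role that were higher, lower or neither; microtubule binding holds 9 of the 13 that were higher.

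The remaining alpha and beta tubulin genes were low. Tubb4a was at 2.09, 2.74 and 2.43 FPKM at E18.5d, 0.97, 1.4 and 1.62 FPKM at P1d, and 5.23, 5.98 and 5.74 FPKM at P7d, a rise of 0.96 (SE 0.12) from E18.5d to P7d (limma, adjusted p = 0.000242). Tubb3, the neuronal beta isotype, was at 2.34 to 4.29 FPKM at E18.5d and 1.3 to 1.84 FPKM at P7d and fell by 0.68 (SE 0.17, limma adjusted p = 0.00839). Without the 3 hearts with airway markers Tubb3 no longer passed (-0.42). Tubb1, the platelet isotype, reached at most 1.47 FPKM, and Tuba3b at most 1.34 FPKM. Tuba3a and Tubal3 were listed at 0.06 FPKM or less in every heart.

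Markers of proliferating cells (Mki67, Top2a, Ccnb1, Cdk1 and Birc5) took the same order of stages as Tubb5, Tuba1a, Tuba1b and Tubb4b. They summed to 279 to 294 FPKM at E18.5d, 62.8 to 86.8 FPKM at P1d and 119 to 133 FPKM at P7d. All 5 fell from E18.5d to P1d and to P7d, and 3 rose from P1d to P7d. Endothelial markers summed to 232 to 263 FPKM at E18.5d and 334 to 351 FPKM at P7d, with 3 of 3 higher. Cardiomyocyte markers summed to 31670 to 33920 FPKM at E18.5d and 37800 to 39650 FPKM at P7d, with 5 of 8 higher and 1 lower. Fibroblast markers summed to 489 to 499 FPKM and 643 to 656 FPKM at these 2 stages, with 1 of 4 higher and 0 lower. Of 8 skeletal muscle markers, 4 had enough signal to be tested and all 4 fell from E18.5d to P7d. Their sum went from 1862 to 1893 FPKM at E18.5d to 1493 to 1587 FPKM at P7d, nearly all of it Ckm, which the heart also expresses, while the fast adult myosins Myh1, Myh2 and Myh4 were at 0 to 0.10 FPKM in all hearts. The part of any of these cell types in the tubulin levels was not tested.

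As a description over the 9 hearts, which fall into stages and share their libraries, the genes whose log2(FPKM + 1) ran closest to Tuba8 were Hmcn2 (Pearson r = 0.993), Ip6k3 (0.993), Lrrc15 (0.993), Papln (0.991) and Ptprm (0.991). Of the other isotypes Tuba4a was closest to Tuba8 (r = 0.955) and Tubb2b most opposed (-0.829). Closest to Tubb5 were Cdca8 (r = 0.994), Eme1 (0.993), Zw10 (0.993), Ticrr (0.992) and Nup62 (0.992), and among the isotypes Tuba1b (0.982), Tuba1a (0.967) and Tubb4b (0.963). By stage mean, in the same order, Cdca8 stood at 28.9, 7.57 and 11.2 FPKM and Hmcn2 at 0.153, 0.31 and 4.58 FPKM.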

How the data were processed

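Total RNA of 9 hearts was sequenced after library preparation with the NEBNext Ultra RNA kit. The authors deposited FPKM, with a column per heart, rounded to 2 decimals, for 48820 genes. STAR and GRCm38 (mm10) are named in the submitters' processing notes. The counting tool, its annotation and its strand setting are not given in the sources used here. Of the identifiers, 48144 were found in GENCODE M21 of GRCm38.

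From these values log2(FPKM + 1) was computed for the 13618 genes whose mean reached 1 FPKM. All 9 hearts were fitted together with limma (3.58.1, R 4.3.3, eBayes with trend), 3 comparisons of stages were made, and p-values were adjusted over all tested genes by Benjamini-Hochberg (threshold 0.05, two-sided). The scripts were tested on simulated data. FPKM carry no counts, so depth was estimated from the steps between low values, of which 66.5 to 80.0% were whole reads within 0.1. The labels name the 3 hearts per stage biological replicates, and p-values measure the spread between these hearts only.

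The isotypes and the gene lists were chosen with earlier results of these data known. Text values are given for all 10 isotypes, the other tubulin genes, and those machinery genes past the threshold without overlap between stages, up to the 6 largest changes in each direction from E18.5d to P7d and 4 in the other comparisons. The other machinery genes named (Ttc5, Ttl, Map4, Map1a, Map1b, Mapre1, Mapre3, Sirt2, Agbl3 and the Ttll genes) were named by role after their values were seen. For Tuba8 and Tubb5 the 5 closest genes by Pearson correlation were listed. Sequences, coding identity and shared windows of 100 bases came from the GENCODE transcripts (Biopython 1.88, Python 3.11.15). Some coding ends are not reported here. Each test was repeated under 20 other settings, among them other scalings, pseudocounts, filters, a replicate block and each heart left out. A further setting, without the 3 hearts with airway markers above 50 FPKM, was added after seeing the data.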

Additional observations from a re-analysis of the deposited data

How the results depend on the processing

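Without the 4 hearts with Xist, which leaves 1 heart at E18.5d and 1 at P7d that are assumed to vary like the P1d hearts, genes past the threshold numbered 194 from E18.5d to P7d, 823 from E18.5d to P1d and 179 from P1d to P7d, in place of 6731, 6260 and 6013. Isotypes past it numbered 2, 6 and 2, and machinery genes 1, 5 and 1; fewer hearts entered these fits. The Tuba8 share at E18.5d was then 0.0286%, and the P7d sums were 715.1 (alpha) and 475.9 FPKM (beta). With the 3 hearts with airway markers left out instead, 1 heart remains at E18.5d (replicate 3) and 2 at P1d. Without the 3 hearts with airway markers the genes numbered 3252, 2471 and 3982, the machinery genes 20 and 17 in the comparisons with E18.5d, and the beta sum at E18.5d was 752.8 FPKM. Columns scaled to an equal sum gave 3929 genes (2200 higher, 1729 lower) and 19 machinery genes from P1d to P7d, and E18.5d sums of 1130 (alpha) and 836 FPKM (beta). By the median of ratios those sums were 995.9 and 736.3 FPKM. With Xist as a covariate 3905 genes passed from P1d to P7d. Shares computed from FPKM times length put Tuba8 at 0.282% at P1d. For these results the cause was not tested.

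Directions turned only for isotypes that had passed as neither. Tubb2a (P7d against E18.5d) was 0.0864 by the median of ratios, 0.0207 after quantile normalization and 0.0106 without the airway hearts. Tubb6 in that comparison was -0.12 without the Xist hearts and -0.0023 without P7d replicate 3. Tuba4a (P1d against E18.5d) was 0.0394 without the airway hearts. Tuba1c (P7d against P1d) was 0.0987 with an equal sum, 0.102 by the median of ratios, 0.0805 after quantile normalization and 0.02 without P7d replicate 1. With each heart left out in turn, Tubb6 ranged from -0.0023 to 0.138 and Tuba1c from -0.0536 to 0.0165. Genes past the threshold ranged from 5545 to 7167, 5157 to 6322 and 4837 to 5877 in the 3 comparisons, and isotypes from 8 to 8, 9 to 9 and 7 to 9. Of the other single-gene values, 1233 kept direction and side of the threshold, 87 lost their call and 2 gained it.

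Same-numbered hearts of different stages did not deviate together (r from -0.0546 to 0.112, 9 pairs), so the numbers do not pair them. With a replicate block 6667, 6173 and 5857 genes, 8, 9 and 9 isotypes and 42, 38 and 31 machinery genes passed. Depth limits Tuba8 at E18.5d most, with 22 to 45.8 estimated fragments per heart.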
